A study of Mus musculus and synthetic construct with 33 samples.

Results

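The stretch examined is the distal end of mouse chromosome 17, more than 25 Mb from the long noncoding RNA gene Trp53cor1, also called linc-p21. Its members were the chromosome 17 genes whose transcription start lay more than 25 Mb beyond that of Trp53cor1 (mm10 build), taken from the 4 organ tables with 1 entry per gene identifier. The start was read as the lower coordinate on the plus strand and the upper one on the minus strand, and Epcam was left out by the rule. This gave 266 of the 26754 genes listed, with starts 25.2 to 65.8 Mb beyond that of Trp53cor1 at chr17:29078961. Another 990 genes lay on chromosome 17 short of this boundary, on both sides of Trp53cor1, and are called the nearer part below, although 6 of them lie over 25 Mb from Trp53cor1 on its other side. The other chromosomes held 25497 genes. Of the 266 genes, 233 are annotated as protein coding, 16 as lincRNA, 8 as antisense, 4 as pseudogene, 3 as sense intronic and 2 as processed transcript. Position chose the genes, except that the rule left out Epcam, which lies on this stretch and was called in liver (q of 0.0140 in the authors' deposited table).

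Polyadenylated RNA was sequenced from 4 organs of E14.5 mouse embryos: liver, lung, heart and hindlimb. The wild-type (WT) and mutant (KO) embryos belonged to the Trp53cor1tm1.1Vlcg strain on the background 129S6/C57BL/6 (N3, no Neo), and both sexes were sampled. Heart, hindlimb and lung had 3 WT and 3 KO libraries each, and liver had 5 WT and 4 KO libraries, 27 in all from 17 embryos of 7 litters. WT and KO came from the same litters in heart and lung, and in liver except for litter 23, which gave WT only. Hindlimb WT came from litters 21 and 22 and hindlimb KO from litters 22 and 23. Genotype and litter therefore cannot be fully told apart in hindlimb. Organs shared embryos, 10 of which gave more than 1 organ, so results in different organs are not independent: heart and liver had 5 embryos in common, liver and lung 4, and heart and hindlimb 1. The allele is constitutive, so every cell type of a KO organ carries it. The authors deposited 1 pooled value per gene and genotype in FPKM (fragments scaled by transcript length and by the library's total), so no spread between embryos can be given for any gene and the depth of the libraries is unknown.

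A gene deletion is inherited together with the stretch of chromosome around it. On a mixed strain background, the genes linked to the altered allele come from the chromosome that was targeted, and recombination breaks up this linkage with distance. A noncoding RNA can also act on genes close to it on the same chromosome, which is called action in cis. Distant genes on the same chromosome therefore serve as a comparison for neighbours in studies of such loci. Which strain's alleles the embryos carried on distal chromosome 17 was not analysed here.

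The distal genes hold 14 head-to-head pairs, in which 2 genes start within 300 bases of each other and are read in opposite directions, so that both share the same stretch of promoter. In 8 pairs both genes were tested in every organ. Promoter sequence from RefSeq (GRCm38.p6, the mm10 assembly) was matched to 181 of the 266 genes, and held the stretch between the starts for 12 pairs. The stretches of 4 of these pairs are printed because their genes are set side by side below: each is the plus strand of chromosome 17 from the base after the minus-strand gene's start to the base before the plus-strand gene's start. Capitals mark GGGCGG (a GC box) and CCAAT on either strand, and TATAAA was searched too.
Heatr5b and Gpatch11, chr17:78835382-78835515: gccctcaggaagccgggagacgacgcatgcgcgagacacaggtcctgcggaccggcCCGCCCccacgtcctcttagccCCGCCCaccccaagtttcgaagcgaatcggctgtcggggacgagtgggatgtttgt
Pigf and Cript, chr17:87025407-87025549: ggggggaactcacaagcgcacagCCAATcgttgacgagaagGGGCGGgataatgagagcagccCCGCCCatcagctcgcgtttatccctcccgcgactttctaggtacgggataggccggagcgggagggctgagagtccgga
Cebpz and Ndufaf7, chr17:78937071-78937134: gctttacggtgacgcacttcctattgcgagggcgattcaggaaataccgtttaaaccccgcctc
Safb2 and Safb, chr17:56584586-56584824: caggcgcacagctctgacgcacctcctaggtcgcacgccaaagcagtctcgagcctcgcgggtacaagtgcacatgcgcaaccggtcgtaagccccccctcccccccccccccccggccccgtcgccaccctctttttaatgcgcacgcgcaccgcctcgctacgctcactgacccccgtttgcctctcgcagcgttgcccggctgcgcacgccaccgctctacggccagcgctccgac

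The stretch between Heatr5b and Gpatch11 held GGGCGG at 2 places, both on the minus strand. That between Pigf and Cript held GGGCGG at 2 places, 1 on each strand, and CCAAT at 1 place. The other 2 stretches held none of the 3 words. Among the 32817 RefSeq promoters, the stretch of the same length just before the start held GGGCGG in 27.6% for the length of the Heatr5b stretch and in 28.2% for that of Pigf, and CCAAT in 23.7% for the latter. TATAAA, found in none of the 4, was present in 4.14% to 11.9% at these lengths. The Heatr5b stretch held 15 CG dinucleotides against a median of 3 in promoters at that length, and the Safb2 stretch held 29 against 5.

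The targeted gene was checked first. Trp53cor1 was at 0.852 FPKM in WT heart and 0.710 in WT hindlimb, and is listed at 0 in both KO groups. In liver it was at 0.0351 FPKM in WT and listed at 0 in KO, and in lung at 0.104 and 0.00505, too low for the authors to test. Each organ held its own defining transcripts in both genotypes. The 13 cardiomyocyte genes summed to 33080 FPKM in WT heart and 33292 in KO heart, the 8 hepatoblast genes to 25032 and 27511 in liver, the 8 epithelial genes to 1060 and 1100 in lung, and the 9 skeletal muscle genes to 1296 and 883 in hindlimb.

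With Epcam left out, no distal gene passed the authors' test (q under 0.05) in any of the 4 organs. Epcam itself was called in liver and is described below. Of the 266 genes, the authors tested 171 in lung, 174 in liver, 177 in heart and 193 in hindlimb, and 158 in all 4. No test was made in any organ for 64 of them, and 7 are listed at 0 in all 8 values. Over all genes tested, the called share was 0.228% in heart, 0.623% in hindlimb, 0.406% in liver, and 0.707% for lung. At those shares, 0.404, 1.2, 0.707 and 1.21 calls would fall among the distal genes tested, 3.52 over 715 tests. The count of 0 leaves out Epcam by the rule, whereas these shares leave out no gene. The 0 therefore cannot be read against them, and with Epcam kept in the liver count is 1. The lowest q among distal genes in the authors' deposited table was 0.166 in hindlimb, 0.272 in lung, 0.329 in liver and 0.815 in heart. In organs sampled whole, fewer cells of a type and less RNA per cell cannot be told apart for any of these genes.

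On the nearer part of the chromosome, the authors' deposited table called 20 of 559 tested liver genes (3.58%), 19 of 619 hindlimb genes (3.07%), 14 of 558 lung genes (2.51%) and 10 of 574 heart genes (1.74%). On other chromosomes the called shares were 0.273%, 0.535%, 0.644% and 0.171% in that order. By windows of 10 Mb, the 15 to 25 Mb window next to the distal genes still held 6 called genes of 90 in liver and 2 of 88 in lung, and 0 of 93 in heart and 0 of 95 in hindlimb. With Epcam left out, every window beyond 25 Mb held 0 called genes in each organ, the first of them with 59 to 63 tested genes. With Epcam kept in, the window 55 to 65 Mb out would hold 1 called gene in liver. Outside the distal genes, and leaving Epcam aside, the called gene farthest along was Mocs1 (molybdenum cofactor synthesis 1), 20.3 Mb from Trp53cor1, at 20.4 FPKM in WT liver and 9.41 in KO liver with a q of 0.0140 in the authors' deposited table. These counts describe position and organ, and no test of the difference between the stretches was made.

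**Figure D1:**
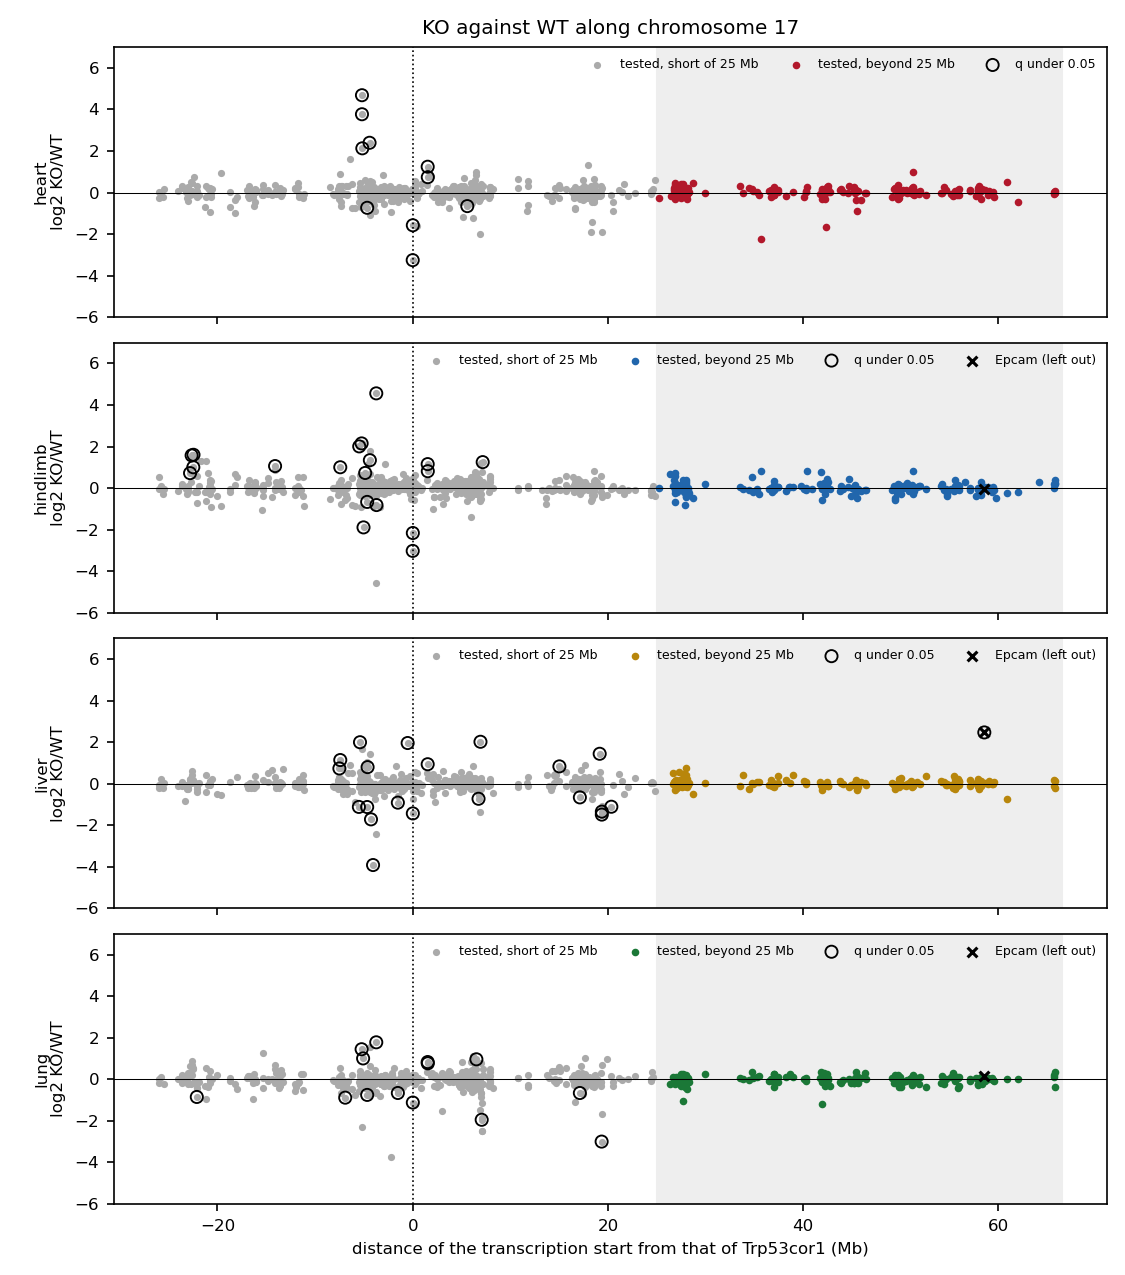
Log2 ratio of KO over WT, each with 0.1 FPKM added, against the distance of a gene's start from that of Trp53cor1 in Mb, 1 panel per organ. Points are tested chromosome 17 genes, coloured for the distal genes, open circles have a q under 0.05 in the authors' deposited table, and the cross is Epcam. No coloured point is circled, and the circles reach 20.3 Mb in liver except for Epcam.

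Epcam, the epithelial cell adhesion molecule, starts 58.6 Mb from Trp53cor1 (chr17:87635979-87651106, plus strand). It was at 0.393 FPKM in WT liver and 2.63 in KO liver, with a q of 0.0140 in the authors' deposited table. In hindlimb it was at 15.2 FPKM in WT and 14.8 in KO, and in lung at 79.1 and 87.9, and neither difference was called. Keeping Epcam among the distal genes makes the count in liver 1. Beside it in liver, 4 of 4 tested pancreas genes were higher in KO and 3 were called, their sum over 6 genes being 10.2 FPKM in WT and 48.9 in KO. Of the epithelial markers, which include Epcam, 6 of 6 tested were higher in KO and 2 were called, Epcam and Cldn6, a claudin at 0.473 FPKM in WT and 2.19 in KO, and the 8 genes summed to 158 and 181 FPKM. The epidermal markers had 4 of 4 tested genes higher and 2 called, Krt5 and Krt15, with sums of 1.91 and 5.23 FPKM. The smooth muscle and mesenchyme markers had 7 of 7 higher and 4 called, with sums of 95.8 and 136 FPKM. The cartilage and bone list had 4 of 4 higher and 1 called, the neuron list 2 of 2 and 1, and the cardiomyocyte list 8 of 10 and 1. Not all lists rose: 5 of 5 tested skeletal muscle genes were lower in KO. Of the hepatoblast, erythroid and myeloid genes tested, 6 of 8, 6 of 8 and 5 of 9 were higher. None was called in the skeletal muscle, hepatoblast, erythroid or myeloid list. Over all genes tested in liver, 7012 of 14275 were higher in KO. Of these 14275 genes 58 were called (0.406%), 43 of them higher in KO. The part of these genes in the Epcam value was not tested.

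Below the threshold for calls, and with Epcam again left out, the shares of distal genes lay near those over all genes. An unadjusted p under 0.05 was held by 5 of 177 distal genes in heart (2.82%), where the share over all genes was 2.95%. It was held by 6 of 171 in lung (3.51%, against 4.68% over all genes), by 5 of 174 in liver (2.87%, against 2.79%) and by 11 of 193 in hindlimb (5.70%, against 5.97%). On the nearer part of chromosome 17 the shares were 8.01%, 11.5%, 11.4% and 9.86% in the order heart, hindlimb, liver, lung. Within the distal stretch, the first window, 25 to 35 Mb out, held such a p for 6 of 63 hindlimb genes, 3 of 59 liver genes, 2 of 59 lung genes and 2 of 61 heart genes. The last full window, 55 to 65 Mb out, held 1 gene in each organ.

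**Figure D2:**
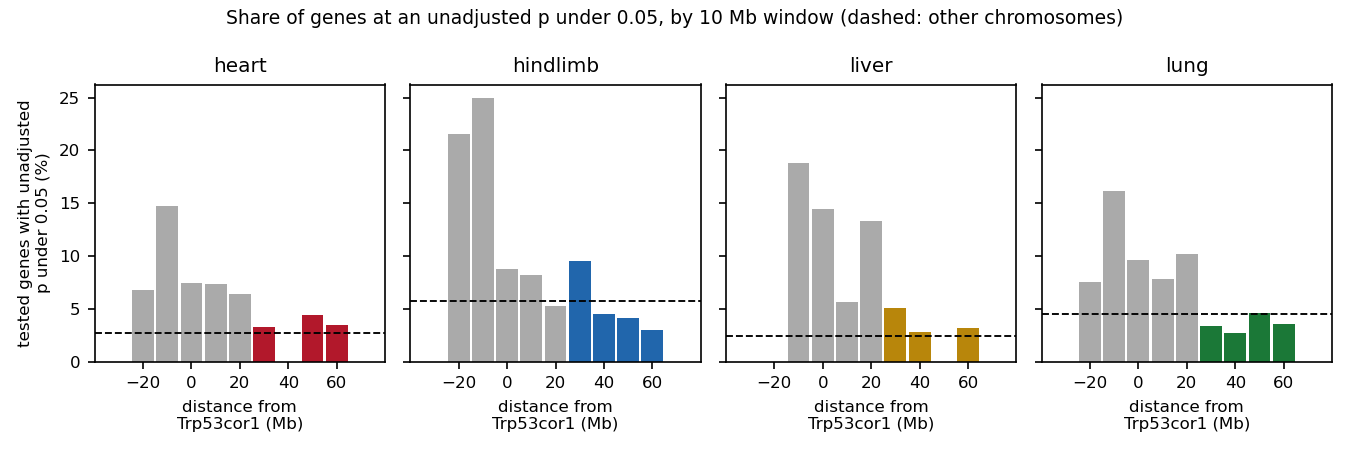
Percent of tested genes with an unadjusted p under 0.05 in the authors' deposited table, by 10 Mb window of distance from Trp53cor1, 1 panel per organ. Coloured bars are the windows of the distal genes and grey bars all other windows, of which the leftmost lies over 25 Mb out on the other side, and the dashed line is the share on other chromosomes, from 2.42% in liver to 5.76% in hindlimb. The coloured bars lie on both sides of the dashed line, whereas most grey bars stand above it, led by 20 of 80 tested genes in the window 15 to 5 Mb before Trp53cor1 in hindlimb; both end windows hold at most 5 tested genes and none at this p.

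The sizes of the differences were as narrow as elsewhere in the genome. The median log2 ratio of KO over WT, after adding 0.1 FPKM to both, over the distal genes tested was 0.05 in heart, 0.01 in hindlimb, -0.01 in lung and -0.02 in liver. Over all genes it was -0.01, 0.01, -0.00 and -0.00 in that order. Among distal genes with a mean of at least 1 FPKM, 141 of 152 lay within 1.2-fold in liver (92.8%, and 91.9% over all genes), 136 of 158 in lung (86.1% and 86.1%), 142 of 165 in hindlimb (86.1% and 83.7%) and 133 of 156 in heart (85.3% and 85.3%). Differences beyond 1.5-fold were held by 1, 2, 2 and 0 of them in that order: Gm10184 in liver, Myom1 and Nrtn in lung, and Rpl21-ps6 and Fsd1 in hindlimb. These were shares of 0.658%, 1.27%, 1.21% and 0%, against 1.33%, 1.83%, 2.62% and 1.70% over all genes. On the nearer part of the chromosome, 34, 33, 32 and 25 genes lay beyond 1.5-fold, of 477 to 503.

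The smallest fold among called genes describes what was called in these tables. Among genes with a mean of at least 10 FPKM, it was 1.38 in hindlimb (Aqp1), 1.41 in liver (Col1a2), 1.45 in lung (Obfc1) and 1.63 in heart (Fbn1), by the FPKM of the authors' deposited table. The largest fold of a distal gene at such levels was 1.36 in heart, 1.58 in hindlimb and 1.25 in liver, all 3 for Rpl21-ps6, and 1.29 in lung for Birc6. In hindlimb, 2 of 98 distal genes reached the smallest called fold, Rpl21-ps6 and Myom1, and in the other organs none of 80 to 100 did. These folds are by definition the lowest among called genes, so they give no limit of detection for a single gene. The width of the authors' test also differed between genes, as described below.

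At the inner edge, Slc5a7, the high-affinity choline transporter of cholinergic neurons, was the distal gene closest to Trp53cor1 at 25.2 Mb. It was at 0.711 FPKM in WT heart and 0.569 in KO heart, at 0.501 and 0.504 in hindlimb, and at most 0.103 in liver and lung. Just outside, Sult1c1, a sulfotransferase gene 24.9 Mb out, was at or near 0 in every organ, and Mrps36-ps1, 24.8 Mb out, was at 2.02 FPKM in WT heart and 3.07 in KO heart.

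The levels of distal genes differed far more between organs than between genotypes. The organ tables were normalized separately, so levels in different organs are side by side values with no test. Of the 139 distal genes tested with a mean of at least 1 FPKM in all 4 organs, the median fold between the highest and lowest WT organ was 2.18. The median of a gene's largest KO to WT fold over the organs was 1.14. In all 139 the range over WT organs was wider than the largest difference between genotypes. The organ with the highest level was the same in WT and KO for 111 of them, and the organ with the lowest level for 124. The KO value lay within 1.5-fold of WT in all 4 organs for 138, and within 1.2-fold for 100, the exception to 1.5-fold being Myom1.

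Among the 139 genes at 1 FPKM or more in every organ, Slc8a1, Myom1 and Lbh of the muscle and contractile cytoskeleton list had the 3 widest ranges over WT organs. Slc8a1, the cardiac sodium-calcium exchanger (chr17:81388691-81649607, minus strand), was at 206 FPKM in WT heart and 192 in KO heart, 6.73 and 6.63 in hindlimb, 1.11 and 1.47 in liver, and 8.21 and 6.31 in lung, a 170-fold range over WT organs. Myom1, which encodes myomesin of the sarcomere's M band, was at 153 and 121 FPKM in heart, 15.8 and 10.7 in hindlimb, 1.57 and 1.26 in liver, and 3.66 and 1.56 in lung. Lbh, a transcriptional regulator of limb and heart development, was at 337 and 375 FPKM in heart, 72.9 and 64.9 in lung, 21.7 and 23.3 in hindlimb, and 13.8 and 14.4 in liver. Heart was the highest organ for all 3 genes in both genotypes, and liver the lowest. Of the 12 distal genes in this list, all tested in every organ, none was called, and 6 were higher and 6 lower in KO in heart, hindlimb and liver alike, and 3 higher and 9 lower in lung. Their median log2 ratios were -0.10 in lung, -0.01 in hindlimb, -0.00 in liver and 0.05 in heart, against the medians of all genes given above. Calm2, one of the calmodulin genes, was at 307 FPKM in WT heart and 350 in KO, 411 and 382 in hindlimb, 350 and 356 in liver, and 475 and 402 in lung. Myl12a, a regulatory light chain of nonmuscle myosin, ran from 148 FPKM in KO liver to 468 in KO heart, and Myl12b, its neighbour with the same role, from 55.8 in WT heart to 165 in WT lung. Both light chains differed less between genotypes than between organs.

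Of the immune and complement genes named here, C3 and Emr1 were highest in liver, whereas Rasgrp3 was lowest there and Eif2ak2 was similar in all organs. C3, the central complement component, was at 171 FPKM in WT liver and 154 in KO liver, and at most 0.811 FPKM in the other organs. Emr1, which encodes the macrophage surface protein F4/80, was at 18.8 and 19.5 FPKM in liver, 5.74 and 4.89 in hindlimb, 3.64 and 3.28 in lung, and 2.76 and 2.84 in heart. Its order over organs was the same in both genotypes. Of 12 distal genes in the list, 7 were tested in heart, hindlimb and lung and 10 in liver, and none was called. The list medians were -0.07 in hindlimb, -0.00 in heart, and 0.04 in both liver and lung. Emr4, another macrophage receptor, was at 1.23 FPKM in WT liver and 1.77 in KO liver, with an unadjusted p of 0.0296 and a q of 1 in the authors' deposited table. Beside it, the 9 myeloid marker genes measured in liver summed to 1465 FPKM in WT and 1556 in KO, with 5 higher, 4 lower and none called. In hindlimb 8 of 8 tested myeloid markers were lower in KO and 2 were called, with sums of 78.8 and 58.1 FPKM. In heart 6 of 8 were higher and in lung 4 of 7 were lower, with none called. The part of myeloid cells in the values of the immune list was not tested. Eif2ak2, the double-stranded RNA sensor PKR, lay between 7.07 and 9.55 FPKM in all 8 values. Rasgrp3, an activator of Ras in B cells and vessels, was at 11.1 FPKM in WT lung and 13.5 in KO lung, with an unadjusted p of 0.0411 in the authors' deposited table, and at 10.4 in both genotypes in heart.

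Genes of chromatin, replication and DNA repair were at similar levels in both genotypes. Uhrf1, which carries DNA methylation through replication, was at 43.1 FPKM in WT heart and 40.7 in KO, 65.5 and 63.6 in hindlimb, 111 and 105 in liver, and 86.3 and 88.4 in lung. Its order over organs, liver highest and heart lowest, was kept in KO. Safb and Safb2, paralogous nuclear matrix proteins read from the head-to-head stretch printed above, were at 51.3 and 46.0 FPKM in WT heart and 42.7 and 39.7 in KO heart. In lung they were at 62.0 and 52.6 FPKM in WT and 66.8 and 63.9 in KO. In hindlimb Safb and Safb2 were at 57.8 and 54.8 FPKM in WT and 62.2 and 60.7 in KO. In liver they were at 46.3 and 42.3 FPKM in WT and 45.8 and 45.8 in KO. Both were thus lower in KO heart and higher in KO lung and hindlimb. In liver they lay on opposite sides, Safb slightly lower and Safb2 higher in KO. No unadjusted p was under 0.05 for either gene. Dpy30, a subunit of histone H3 methyltransferase complexes, was at 50.5 and 61.2 FPKM in heart, 49.2 and 48.9 in hindlimb, 73.5 and 71.1 in liver, and 54.7 and 49.2 in lung. Of the 15 genes listed, 14 or 15 were tested in each organ and none was called, with medians of 0.01, 0.05, -0.04 and 0.01 in heart, hindlimb, liver and lung. Kdm4b, a histone H3 lysine demethylase, was the exception at the unadjusted threshold, at 5.56 FPKM in WT liver and 8.31 in KO liver with a p of 0.00335 and a q of 0.399 in the authors' deposited table. It was at 15.9 and 16.8 FPKM in hindlimb, 14.7 and 13.6 in lung, and 16.08 and 14.49 in heart, all smaller differences.

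None of the distal genes in the mitochondrial list was called in any organ. The list also counts Haao and Tmem178, which are not established as mitochondrial genes. Of the 12 distal genes listed, 10 were tested in heart and 7 of these were higher in KO, with a median log2 ratio of 0.16. In lung 8 of 10 were lower in KO, with a median of -0.12, and in hindlimb and liver the medians were 0.04 and -0.02. Over all genes tested, 7216 of 15336 were higher in KO heart and 7381 of 14709 were lower in KO lung. The direction of a gene also moved with its length in heart and lung, as described below. The difference between organs, and the part of length in this and the other gene lists, were not tested. Ndufv2, a core subunit of respiratory complex I, was at 241 FPKM in WT heart and 291 in KO heart, 117 and 112 in hindlimb, 165 and 161 in liver, and 138 and 108 in lung. Its unadjusted p was 0.0132 in lung and 0.0946 in heart in the authors' deposited table. Cox7a2l, a factor that joins respiratory complexes, was at 237 and 289 FPKM in heart and 206 and 175 in lung. Clpp and Lonp1, both proteases of the mitochondrial matrix, were at 31.7 and 46.2 FPKM in WT heart and 36.2 and 46.2 in KO heart. Haao, an enzyme of tryptophan breakdown, was at 24 FPKM in both genotypes in liver and at most 0.254 FPKM elsewhere.

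Genes of lipid metabolism were sparse in these organs, with 5 to 8 of 11 tested in each and none called. Vapa, a tether of the endoplasmic reticulum, and Plin3, a coat protein of lipid droplets, were the most abundant. Vapa was at 68.5 FPKM in WT heart and 72.1 in KO, 68.0 and 66.3 in hindlimb, 48.8 and 46.0 in liver, and 73.7 and 68.7 in lung. Plin3 was at 48.9 and 51.7 FPKM in heart, 48.9 and 48.1 in hindlimb, 31.6 and 31.1 in liver, and 43.7 and 41.0 in lung. Lclat1, an acyltransferase that remodels cardiolipin, was highest in heart at 39.4 and 40.7 FPKM and lowest in liver at 4.62 and 4.65. The order of organs for Lclat1 was the same in both genotypes, and liver was the lowest organ for all 3 genes. The lipid list medians were -0.07 in lung, -0.04 in liver, -0.02 in hindlimb and 0.05 in heart.

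Developmental regulators showed marked organ patterns and small genotype differences. Six2, a homeobox gene of limb and kidney mesenchyme, was at 9.40 FPKM in WT hindlimb and 11.5 in KO hindlimb, and at most 0.325 FPKM in the other organs. Pkdcc, a secreted kinase of limb and lung growth, was at 84.5 and 89.6 FPKM in hindlimb, 62.7 and 55.8 in lung, 43.2 and 43.0 in heart, and 22 and 24.3 in liver. Twsg1, a modulator of bone morphogenetic protein signals, was at 53.0 and 53.7 FPKM in hindlimb, 52.2 and 49.7 in lung, 43.6 and 45.2 in heart, and 13 and 13.2 in liver. Both were lowest in liver in each genotype. Ptprs, a receptor tyrosine phosphatase of axon growth, was at 61.1 and 64.6 FPKM in hindlimb and 7.04 and 7.87 in liver. The list held 21 gene symbols, with Efna5 entered under separate gene identifiers that were counted separately. Of the entries, 17 to 20 were tested per organ and none was called. In heart 13 of 18 and in hindlimb 13 of 20 were lower in KO, and in lung 14 of 18 were higher, with medians of -0.04, -0.06 and 0.05. Over all genes tested, 8120 of 15336 in heart and 7859 of 16526 in hindlimb were lower, and 7327 of 14709 in lung were higher. Epas1, which encodes the hypoxia-inducible factor HIF-2alpha, was at 7.86 FPKM in WT hindlimb and 5.93 in KO hindlimb with an unadjusted p of 0.0065 and a q of 0.296 in the authors' deposited table. It was at 9.19 and 8.11 FPKM in heart, 3.56 and 3.62 in liver, and 10.3 and 10.7 in lung.

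Extracellular matrix genes were 7, of which 4 to 6 were tested per organ and none called. Ltbp1, which binds latent TGF-beta in the matrix, was at 33.0 FPKM in WT heart and 25.3 in KO heart, with an unadjusted p of 0.0585 in the authors' deposited table. It was at 51.9 and 47.9 FPKM in hindlimb, 4.52 and 4.84 in liver, and 16.5 and 17.3 in lung. Emilin2, an elastic fibre glycoprotein, was at 27.4 and 22.4 FPKM in heart and 17.2 and 14.0 in hindlimb. Crim1, a transmembrane binder of growth factors, was at 3.44 and 2.95 FPKM in heart and 8.87 and 8.46 in hindlimb, and Sema6b, a guidance ligand of axons, at 5.19 and 4.62 in hindlimb. The list medians were -0.25 in heart, over 4 genes, and -0.14 in hindlimb, over 6, and 0.04 in liver and 0.06 in lung. Over all genes tested the medians were -0.01, 0.01, -0.00 and -0.00 in that order. Beside the hindlimb values, the 7 smooth muscle and mesenchyme marker genes summed to 2055 FPKM in WT and 1494 in KO, with 6 lower, none of them called. Their part in the matrix values was not tested.

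Genes of RNA processing and translation included the most abundant distal transcript. Rpl36, a protein of the large ribosomal subunit (chr17:56613395-56614243, plus strand), was at 884 FPKM in WT heart and 1184 in KO heart, with an unadjusted p of 0.0084 and a q of 0.815 in the authors' deposited table. It was at 1180 and 1223 FPKM in hindlimb, 1525 and 1474 in liver, and 1545 and 1295 in lung. A copy on the same stretch, Rpl36-ps4, is listed at 0 in all 8 values, so how reads of both were shared is uncertain. Srsf7, a splicing factor, was at 81.5 and 86.5 FPKM in heart, 120 and 136 in hindlimb, 103 and 98.4 in liver, and 145 and 137 in lung. Gtf2f1, a subunit of the general transcription factor TFIIF, was highest in liver at 76.2 and 70.1 FPKM, and Hnrnpll, a splicing regulator, in lung at 59.3 and 60.2. All 14 distal genes of the list were tested in each organ and none was called. The list also counts Heatr5b, described below as an adaptor of endosome transport, and Zfp119a and Zfp119b, zinc finger genes by their symbols. Its counts and medians are thus not of RNA processing and translation genes alone. Heatr5b had the lowest log2 ratio of the list in heart, -0.32. In heart 10 of 14 were higher in KO and in liver 11 of 14 were lower, with medians of 0.08 and -0.06. Over all genes tested, 7216 of 15336 in heart were higher and 7263 of 14275 in liver were lower.

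The 4 gonadotropin receptor and steroid enzyme genes were near silent in these organs. Fshr, the receptor for follicle-stimulating hormone, and Lhcgr, that for luteinizing hormone, were at most 0.251 FPKM in all 8 values each. Srd5a2, a steroid 5-alpha-reductase, was at 1.25 and 1.24 FPKM in hindlimb and at most 0.0407 elsewhere. Cyp1b1, a cytochrome P450, lay between 0.305 and 0.892 FPKM in all 8 values. Too few of the 4 were tested, 1 to 3 per organ, for their medians to be read.

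**Figure D3:**
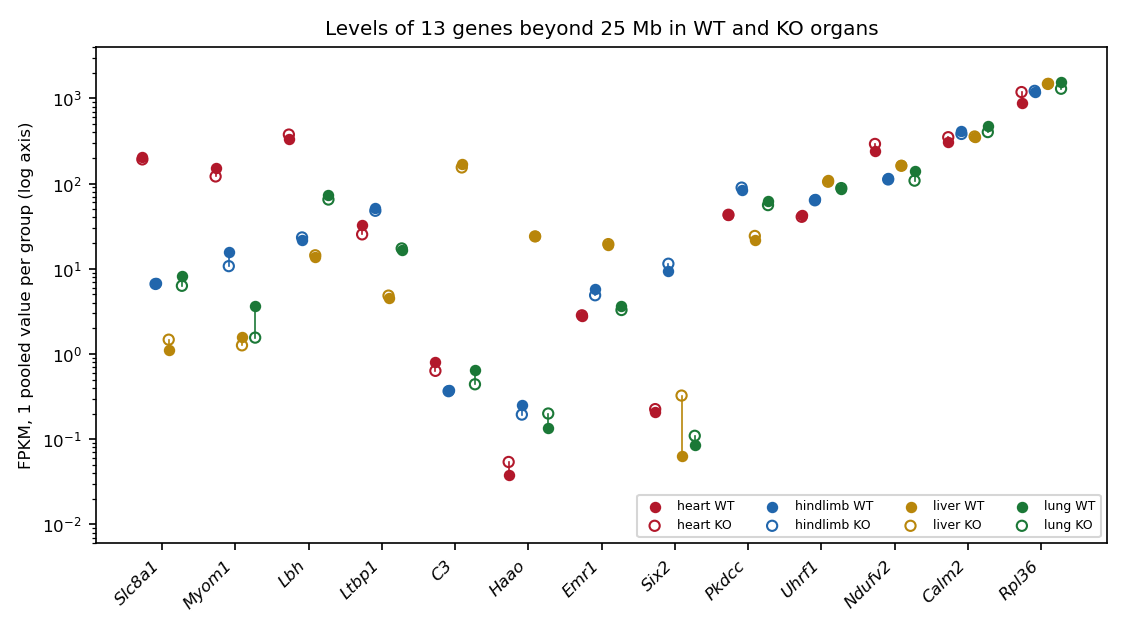
FPKM of 13 distal genes on a log axis, with filled circles for WT, open circles for KO, and 1 colour per organ; each circle is the authors' pooled value of 1 group, and a line joins both genotypes of an organ. Slc8a1, Myom1 and Lbh are highest in heart, C3, Haao and Emr1 in liver and Six2 in hindlimb, and the circles of 1 organ lie close together except for low values such as Six2 in liver and Myom1 in lung.

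In all, 24 distal genes had an unadjusted p under 0.05 in at least 1 organ, 3 in 2 organs and 0 in 3. None of these p-values passed after adjustment over all genes, and at the shares of all genes 29.6 such p-values would fall among the 715 tests, where 27 were seen. Higher and lower values in KO were split 4 to 1 in heart, 5 to 6 in hindlimb, 4 to 1 in liver, with 2 to 4 in lung. Over all genes with such a p, the split was 173 to 279 in heart and 414 to 573 in hindlimb. It was 325 to 73 in liver and 196 to 493 in lung. On these few genes, heart thus leaned the other way from all genes, and the other organs the same way. Fsd1, which encodes a microtubule-associated protein, was at 2.79 FPKM in WT hindlimb and 4.65 in KO hindlimb, with a p of 0.00235 and the lowest q of the distal genes, 0.166, in the authors' deposited table. Shd, an adaptor protein gene close by at 26.9 Mb from Trp53cor1, was at 5.78 and 8.58 FPKM there, with a p of 0.00785 in the authors' deposited table. In heart Fsd1 was at 0.764 and 0.811 FPKM and Shd at 2.98 and 3.56, and in lung at 2.30 and 1.97 and at 3.78 and 3.49. Both genes were thus higher in KO in heart and hindlimb and lower in lung. Nrtn, which encodes the neurotrophic factor neurturin, was at 2.17 FPKM in WT lung and 1.01 in KO lung, with a p of 0.0032 and a q of 0.272 in the authors' deposited table. In the other organs Nrtn was higher in KO, at 2.72 and 3.68 FPKM in heart, 2.30 and 3.04 in hindlimb, and 0.342 and 0.511 in liver. Arhgap28, a GTPase-activating protein, was at 1.86 FPKM in WT liver and 2.53 in KO liver, with a p of 0.0206 in the authors' deposited table, and at 36.2 and 37.4 in hindlimb, where it was most abundant. The remaining genes at the ends of the fold range had no p under 0.05. Ttc7, a scaffold of a lipid kinase complex, was at 1.53 FPKM in WT heart and 1.21 in KO heart, and A930002H24Rik at 0.901 and 1.37 in hindlimb. Lpin2, a phosphatidate phosphatase, was at 16.1 and 20.1 FPKM in lung, and the lincRNA Gm1976, 65.8 Mb out, at 6.44 and 8.34 there. Gm20939, the most distal gene of all, was at 1.73 FPKM in WT lung and 1.32 in KO lung.

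The 3 genes with such a p in 2 organs were Rpl21-ps6, Tubb4a and Gm10184. Tubb4a, a beta-tubulin (chr17:57080066-57087782, minus strand), was higher in KO in hindlimb, at 5.12 and 6.80 FPKM (p of 0.0375 in the authors' deposited table), and in liver, at 0.219 and 0.436 FPKM (p of 0.0395). It was lower in KO in heart, at 2.92 and 2.58 FPKM, and in lung, at 7.63 and 7.20. Rpl21-ps6 (chr17:55915403-55915870, minus strand), whose symbol names it a pseudogene of a ribosomal protein gene although its annotation is protein coding, was at 26.6 FPKM in WT heart and 36.4 in KO heart, with a p of 0.0239 in the authors' deposited table. In hindlimb it was at 35.5 FPKM in WT and 22.5 in KO, with a p of 0.00505 and a q of 0.261 in the authors' deposited table, and in liver at 30 and 24. In lung it was at 0.0560 and 0.222 FPKM and not tested. Gm10184 (chr17:89908511-89910449, minus strand) was at 2.19 and 3.11 FPKM in heart (p of 0.0348 in the authors' deposited table), 3.31 and 1.93 in liver (p of 0.00265), 2.08 and 1.76 in hindlimb, and 0.821 and 0.839 in lung. Rpl21-ps6 and Gm10184 were thus higher in KO in heart and lower in KO in hindlimb and liver, and lowest in lung in both genotypes. Rpl7a-ps5, a further ribosomal pseudogene by its symbol, had the same directions, at 2.78 and 3.83 FPKM in heart, 5.69 and 4.03 in hindlimb, 4.06 and 2.86 in liver, and 0.108 and 0.0979 in lung, with no p under 0.05. Such copies share sequence with their parent genes elsewhere, so the reads assigned to them are uncertain. The organs share embryos and these genes were picked for their size of difference, so their directions are values side by side and not independent.

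Of the 8 head-to-head pairs tested in every organ, both genes lay on the same side of WT in 5 pairs in heart, 5 in hindlimb, 5 in liver, and 6 of lung, with the rest on opposite sides. Heatr5b and Gpatch11 are described first because both had an unadjusted p under 0.05 in heart, and values for the other pairs printed above follow. Heatr5b, an adaptor of endosome transport, was at 10.0 FPKM in WT heart and 7.98 in KO heart, and Gpatch11, a G-patch protein, at 4.63 and 5.92. Their unadjusted p-values in the authors' deposited table were 0.0276 and 0.0342, in opposite directions. In hindlimb Heatr5b was at 7.49 and 7.15 FPKM and Gpatch11 at 5.45 and 6.23, in liver at 3.62 and 3.31 and at 3.45 and 3.41, and in lung at 6.38 and 7.39 and at 4.48 and 4.47. The pair thus lay on opposite sides in heart, hindlimb and lung, and both genes were slightly lower in KO in liver. Cript, a postsynaptic protein, was at 42.4 FPKM in WT heart and 48.8 in KO heart, and Pigf, an enzyme of lipid anchor synthesis, at 19.9 and 20.4. In lung Cript was at 44.5 and 37.2 FPKM and Pigf at 21 and 17.7, both lower in KO with no unadjusted p under 0.05. Cebpz, a transcription and ribosome assembly factor, was at 13.6 and 14.4 FPKM in heart and 23.7 and 21.5 in liver, and Ndufaf7, an assembly factor of complex I, at 15.1 and 16.7 and at 12.4 and 11.8. Both genes of that pair were higher in KO in heart and lower in KO in liver.

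Markers of other cell types differed between genotypes beside some of these values. In lung, 13 of 13 cardiomyocyte genes were lower in KO and 11 were called, their sum being 967 FPKM in WT and 61.3 in KO, with Nppa at 62.0 in WT and listed at 0 in KO. Slc8a1 was at 8.21 and 6.31 FPKM in the same lung groups, with an unadjusted p of 0.0203 in the authors' deposited table, and Myom1 at 3.66 and 1.56. In hindlimb, 9 of 9 skeletal muscle genes were lower in KO and 2 were called, with a sum of 1296 FPKM in WT and 883 in KO, and Myom1 was at 15.8 and 10.7 there. The 6 epidermal genes were all lower in KO hindlimb, with 2 called and sums of 899 and 693 FPKM, beside Acer1, an alkaline ceramidase of skin, at 0.697 and 0.356. Over all genes tested, 91 of 104 called genes in lung and 58 of 103 in hindlimb were lower in KO. The part of these cell types in the values of Slc8a1, Myom1 and Acer1 was not tested.

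Myom1 had the largest fold of any distal gene at 1 FPKM or more, 2.27-fold lower in KO lung by its logged values with 0.1 FPKM added, and yet an unadjusted p of 0.520 in the authors' deposited table. It is 1 of 11 genes that the tables list under a single locus, with Myl12a, Myl12b, Lpin2, Emilin2 and Smchd1 among them. In all, 86 of the 266 genes share a locus with another, in 35 such loci. Dividing the deposited log2 fold change by the deposited test statistic gives the width that the test assigned to a gene. For the 6 genes of the Myom1 locus above 1 FPKM, its median on the log2 scale was 0.946 in hindlimb, 1.01 in liver, 1.33 in lung and 2.03 in heart. For the other distal genes the medians were 0.285, 0.334, 0.283 and 0.295 in that order. In heart, hindlimb and lung 5 of the 6, and in liver all 6, were above the 95th percentile of the others. The lowest unadjusted p among them in any organ was 0.322 in the authors' deposited table.

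In heart and lung the direction of a distal gene moved with its exonic length, the number of bases covered by its listed exons. Heart genes were divided at 2649 and 4743 bases, which put all heart genes with a mean of at least 1 FPKM into 3 classes of equal size. In the shortest class 53 of 65 distal genes were higher in KO with a median log2 ratio of 0.13, in the middle class the median was 0.04, and in the longest class 26 of 39 were lower with a median of -0.10. In lung the order was the reverse, with medians of -0.09, -0.00 and 0.11 and 47 of 64 short genes lower in KO. Over all genes the medians were 0.08, -0.01 and -0.09 in heart and -0.09, -0.00 and 0.07 in lung, so the pattern was not confined to distal chromosome 17. Spearman's rank correlation between length and log2 ratio across distal genes was -0.61 in heart over 156 genes, 0.56 in lung over 158, -0.13 in hindlimb over 165 and 0.04 in liver over 152, where genes share libraries and are not independent. Over all genes it was -0.40, 0.40, -0.04 and 0.07. Rpl36, the gene with the lowest p in heart, has 404 exonic bases, and Birc6, an inhibitor of apoptosis with 29039 exonic bases, was at 27.9 FPKM in WT heart and 21.7 in KO heart and at 36.3 and 47.0 in lung. The part of length in any single value was not tested.

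**Figure D4:**
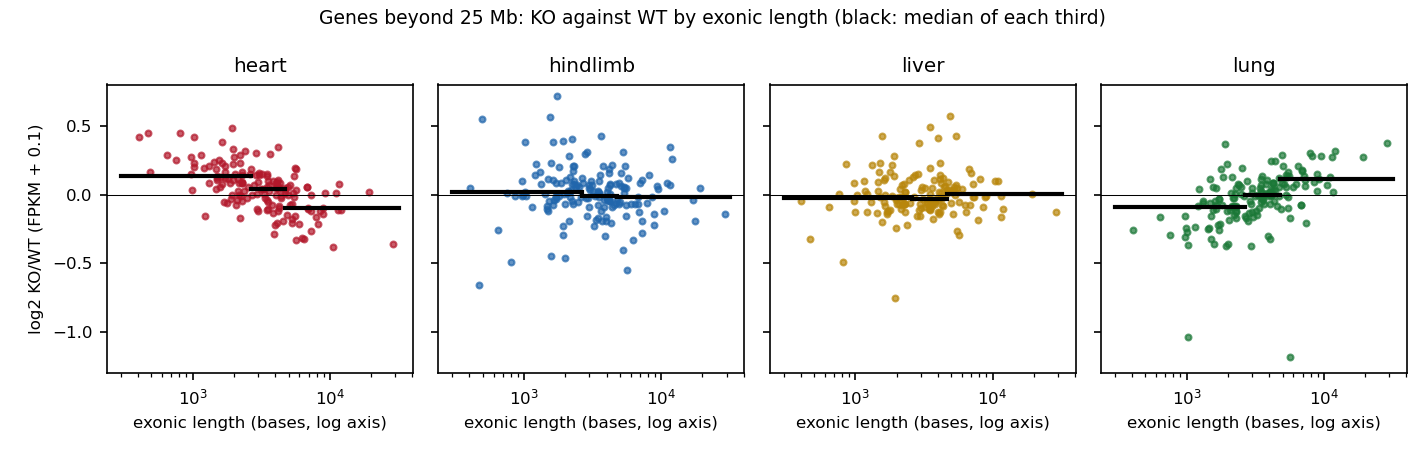
Log2 ratio of KO over WT, each with 0.1 FPKM added, against exonic length in bases on a log axis for distal genes with a mean of at least 1 FPKM, 1 panel per organ. Black lines are the medians of the short, middle and long classes, which step down in heart from 0.13 to -0.10, step up in lung from -0.09 to 0.11, and lie between -0.03 and 0.02 in hindlimb and liver.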

How the data were processed

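The members and gene lists were chosen with earlier results of these data known. Per the submitters' processing notes, reads were handled with TopHat2 and CASAVA 1.8.2 on build mm10, and per the labels' protocols libraries came from a TruSeq RNA v2 kit. Per the file headers, the authors deposited 1 FPKM value per gene and genotype in each organ, pooled over libraries, so library depth is unknown. The authors deposited, with these, a log2 fold change of KO over WT and the score of their test (its statistic). They also deposited its p-value and q-value. Some deposited log2 fold changes are infinite or far beyond the range of the FPKM values, and ratios were therefore computed here as log2(FPKM + 0.1) of KO minus WT. No source used here names the program of the authors' test, which took the place of the tests per library that the values could not support.

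Exon entries were merged to 1 entry per gene identifier with Python 3.11.15, pandas 2.3.3, numpy 2.4.6 and scipy 1.17.1, and calls were taken at a q under 0.05. A Benjamini-Hochberg adjustment of the deposited p-values was checked against the deposited q-values and tested on simulated data. Genes named were those with an unadjusted p under 0.05 in 2 organs, the 3 highest and 3 lowest deposited fold changes per organ at a mean of at least 1 FPKM, the 3 highest WT levels per organ and up to 4 of the highest mean level in each of 9 role lists. Other genes named were chosen after their values were seen. Alternatives changed the adjustment, the threshold, the inner boundary, Epcam, the pseudocount, the filter on low values and the centring. The reporter assay of the series was not used here.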

Additional observations from a re-analysis of the deposited data

How the results depend on the processing

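The count of called distal genes stayed at 0 in all 4 organs with q-values adjusted over genes of at least 1 FPKM or over all 4 organs together, at a q under 0.1, with a minimum of 1.5-fold and with the boundary at 35 Mb. With Epcam kept in, the liver count was 1 and the others 0. The median log2 ratio moved by less than 0.05 under each other setting of the pseudocount, the filter on low values, the centring and the boundary, but changed sign in lung, from -0.01 to 0.003, when all genes above 0 were taken (0.00305) or the boundary was moved out (0.00261). Split by exonic length, which was chosen after seeing the data, the heart median was 0.133 in the shortest and -0.101 in the longest class, and the lung median -0.0874 and 0.110. Of 187 values of named genes, 2 changed sign when centred on all genes, both under 0.01 in size, and 0 with 1 FPKM added. No paired analysis was possible because the tables hold 1 value per genotype, and leaving out single libraries was not run for the same reason. Depth limits and spread between embryos are unknown, and low genes such as the 64 tested in no organ give no comparison.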
